A study of Mus musculus with 12 samples.

Results

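The Hox cluster genes were read out in Sol8 cells, a myoblast line derived from mouse soleus, a muscle of the hindlimb. Every row of the count table whose symbol is Hoxa, Hoxb, Hoxc or Hoxd followed by a number was taken, which gave 40 rows for 39 symbols among 54838 genes listed, since Hoxd4 has 2 gene identifiers. RNA was sequenced from 12 libraries, 3 in each of 4 groups. WT cells are the parental line, and Gne KO cells are 1 clone of it that carries a small CRISPR deletion in exon 3 of Gne, the gene of the key enzyme of sialic acid synthesis, so genotype and clone cannot be told apart. Each genotype was sampled in a proliferative state, in fetal calf serum, and in a differentiated state, in horse serum. The paper saw no fusion of KO cells in differentiation medium, so for KO cells the word differentiated names the medium only. By the labels the 3 libraries of each group are biological replicates, while the methods speak of independent cultures and of triplicates, so the p-values measure a spread between libraries that may in part be technical. In these bulk samples, fewer cells that express a gene and less RNA per cell cannot be told apart.

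Hox genes encode homeodomain transcription factors that give cells their position along the body axis. They lie in 4 clusters, HoxA to HoxD, in which the order of genes along the chromosome follows the order of their expression from head to tail, so that low paralog numbers mark anterior and high numbers posterior positions. Posterior HoxA and HoxD genes pattern the limb, posterior HoxC genes are active in the hindlimb, and connective tissue and muscle cells of the adult keep a Hox pattern of the place they came from. Polycomb complexes keep the clusters silent and trithorax complexes keep them active, and TALE homeodomain proteins (Pbx, Meis, Pknox) bind DNA together with Hox proteins. Below, paralog numbers 1 to 3 are called anterior, 4 to 8 central and 9 to 13 posterior.

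Total counts per library ran from 22612038 to 29389759. The KO proliferative libraries stood apart from the rest, with 19225 to 20318 genes detected against 20858 to 21953 in the other 9 libraries, and with a wider replicate spread, as each library was set against the mean of its other replicates gene by gene and the SD of these log2 differences was 0.302 to 0.400 against 0.0893 to 0.291 elsewhere. The label of myoblast was met in WT cells, which had 2271 normalized counts of Myod1, 2176 of Myf5 and 22363 of Des in the proliferative state (means of 3), while Pax7 had 6 counts in all. Replicate 1 stood apart among these WT libraries, with Myod1 at 3640, 1571 and 1603 and Myog at 8899, 2647 and 2459. Myogenic markers were lower in KO cells for 8 of 9 tested genes in the proliferative and 9 of 9 in the differentiated state. Of all genes tested, 28.2% were higher and 27.2% lower in KO proliferative cells, and 11.1% and 12.5% in KO differentiated cells. The summed myogenic level was 45871 to 94433 in WT and 13771 to 22506 in KO proliferative libraries, and 108110 to 118430 in WT and 11914 to 13699 in KO differentiated libraries. The summed fibroblast and tendon level was 200610 to 243410, 133760 to 158590, 178960 to 198120 and 260110 to 270620 in the same order of groups, with Tcf21 at 0 counts and, of 6 of its genes tested, 1 higher and 1 lower in KO proliferative and 4 higher and 1 lower in KO differentiated cells. The part of these differences in the Hox values was not tested. Gne itself had 270.3 ± 12.9 normalized counts in WT and 303 ± 61.8 in KO proliferative libraries, and 275 ± 10.6 and 209 ± 3.27 in the differentiated ones (SD, n = 3), but a count over the whole gene does not check a small deletion within an exon.

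Expression was almost confined to HoxA and HoxC. All 11 HoxA genes and all 9 HoxC genes passed the filter of 10 counts summed over the 12 libraries, against 1 of 10 HoxB genes, Hoxb2, and none of the 10 HoxD rows, so that 21 members were tested. Of all counts on members, 76.8% fell on HoxC, 22.9% on HoxA, 0.303% on HoxB and 0.00378% on HoxD, which received 4 counts in all. Of the 19 rows that were not tested, 11 had no count in any library. These were Hoxb3, Hoxb4, Hoxb7, Hoxb13, Hoxd1, Hoxd3, 1 identifier of Hoxd4, Hoxd8, Hoxd9, Hoxd10 and Hoxd12. A count of 0 of 317351456 allows up to 3 counts, or 0.00945 CPM (counts scaled to library totals), where only counting error is covered. Hoxb9 had 5 counts over all libraries, Hoxb1 and Hoxd11 had 2 each, and Hoxb5, Hoxb6, Hoxb8, Hoxd13 and the other identifier of Hoxd4 had 1 each. In the GENCODE vM21 annotation of GRCm38, 62.35% of the exon bases of Hoxd3 and 52.31% of those of Hoxd4 overlap another gene on the same strand, and reads there may have been left uncounted. Genes beside the HoxD cluster were well covered, with Mtx2 at 1365 and Lnpk at 1505 normalized counts in WT proliferative libraries, while Evx2, the homeobox gene next to Hoxd13, had 2 counts in all. No count was given for 6 microRNA genes of the clusters, where question marks stand in the table.

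**Figure D1:**
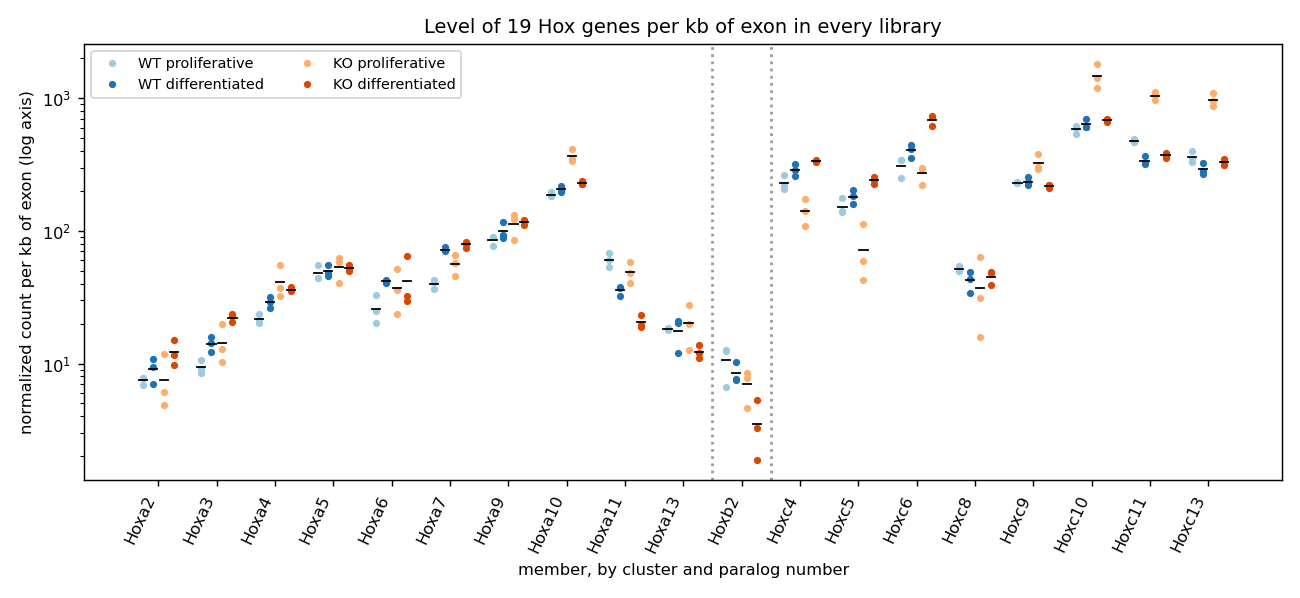
Normalized count per kb of exon (log axis) of 19 members whose mean normalized count reached 20 in 1 or more groups, by cluster and paralog number; points are libraries, short lines are means of 3 libraries and dotted lines part the clusters. Within HoxA the level was highest for Hoxa10, and in HoxC Hoxc8 lay below its neighbours, while Hoxc10 had the highest mean in 3 groups and Hoxc6 in KO differentiated cells.

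To compare genes, normalized counts were divided by the length of the union of exons in kb. On this scale the highest means in WT proliferative cells were those of Hoxc10, a lumbar-level gene (583), Hoxc11 (474), and Hoxc13, a gene of hair and nail formation (359.8). Hoxc6, a thoracic-level gene, followed at 309, then Hoxc9 at 231, Hoxc4 at 229.5, Hoxa10 at 187 and Hoxc5 at 152. Hoxc8 was lower than both of its neighbours, at 51.2. Hoxc12 was the exception among the posterior HoxC genes, as it had only 18 counts in all and a normalized count between 0 and 3.24 in every library, and it passed no test. In KO differentiated cells the order began with Hoxc6 (690.2) and Hoxc10 (680.0), which the plot of levels per kb shows with the other groups. In HoxA the mean level per kb rose with the paralog number from Hoxa2 (7.47) over Hoxa3 (9.39), Hoxa4 (21.8) and Hoxa5 (47.7) to Hoxa9 (85.7) and Hoxa10, with Hoxa6 (25.9) and Hoxa7 (40.0) below that line, and fell again to 60.8 for Hoxa11 and 18.2 for Hoxa13. In each of the 7 paralog groups with a gene in both clusters, the HoxC gene had the higher mean level per kb in all 4 groups of libraries. The excess in WT proliferative cells was 2.70-fold for Hoxc9 over Hoxa9, 3.12-fold for Hoxc10 over Hoxa10, 11.9-fold for Hoxc6 over Hoxa6 and 19.8-fold for Hoxc13 over Hoxa13. These ratios depend on the exon lengths used, 5580 bases for Hoxa9 and 2430 for Hoxc9. Before division by length, the mean of Hoxc9 was 562 against 478 for Hoxa9 in WT proliferative cells. In KO differentiated cells Hoxa9 was then the higher, at 653 against 531.

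The HoxA members lie on chromosome 6 of GRCm38, minus strand, with Hoxa2 from 52162417 and Hoxa13 to 52260880, and the HoxC members on the plus strand of chromosome 15, from 102921103 (Hoxc13) to 103036852 (Hoxc4). Hoxc10 (ENSMUSG00000022484, chromosome 15, 102966796 to 102971893) and Hoxc5 (ENSMUSG00000022485, chromosome 15, 102967443 to 103017429) share exon bases on the same strand, 8.696% of those of Hoxc10 and 5.374% of those of Hoxc5, so a few of their reads cannot be assigned. The same holds for 15.04% of the exon bases of Hoxa2 and 8.015% of those of Hoxa3. Antisense genes overlap 34.98% of the exon bases of Hoxa11 (Hoxa11os), 25.42% of Hoxa3 (4 genes), 20.38% of Hoxa7 (Hoxaas3), 16% of Hoxa4 (Gm29430) and 27.32% of Hoxb2 (Hoxb3os), and the strand setting of the counting is not stated in the sources at hand, so their values are uncertain to that extent. Hoxb3os had no count in any library.

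Of the 39 symbols, 22 matched the RefSeq promoter table (GRCm38.p6), in 24 windows, and the 250 bases before the transcript start are shown here for a start within Hoxc4, the only HoxC gene in the table and one whose level was lower in the KO proliferative cells, for both starts of Hoxa10, which was higher there, and for Hoxa11, which differed between the genotypes in differentiated cells. Capitals mark the GC box GGGCGG on either strand, which Hoxc4 and the distal Hoxa10 start each hold once, 45 and 90 bases before the start. The windows are chr15:103034145-103034394 (plus strand), chr6:52240855-52241104, chr6:52234940-52235189 and chr6:52245811-52246060 (minus strand).
Hoxc4: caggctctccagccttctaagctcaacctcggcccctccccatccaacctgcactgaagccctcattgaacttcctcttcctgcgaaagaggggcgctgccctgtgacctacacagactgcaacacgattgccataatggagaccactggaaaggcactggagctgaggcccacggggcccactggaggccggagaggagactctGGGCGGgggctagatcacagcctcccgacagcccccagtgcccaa
Hoxa10, distal start: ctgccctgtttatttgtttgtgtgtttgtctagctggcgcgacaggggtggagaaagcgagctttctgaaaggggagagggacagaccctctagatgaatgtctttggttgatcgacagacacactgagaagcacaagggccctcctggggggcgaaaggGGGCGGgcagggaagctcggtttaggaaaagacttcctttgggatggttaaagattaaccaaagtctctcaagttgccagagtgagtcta
Hoxa10, proximal start: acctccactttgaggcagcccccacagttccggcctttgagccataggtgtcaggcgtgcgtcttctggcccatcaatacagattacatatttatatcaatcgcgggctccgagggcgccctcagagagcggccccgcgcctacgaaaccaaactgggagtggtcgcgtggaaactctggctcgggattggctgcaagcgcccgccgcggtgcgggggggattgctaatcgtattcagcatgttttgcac
Hoxa11: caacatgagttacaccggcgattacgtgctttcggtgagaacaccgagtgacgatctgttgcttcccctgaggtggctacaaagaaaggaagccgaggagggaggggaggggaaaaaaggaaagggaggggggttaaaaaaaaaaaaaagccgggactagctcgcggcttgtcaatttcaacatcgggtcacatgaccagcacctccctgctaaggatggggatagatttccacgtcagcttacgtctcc
The GC box was found in 10 of the 24 Hox windows, and in 32.7% of all 32851 windows of the same length. The CCAAT box, CCAAT on either strand, was in 14 of 24 against 33.9% of all windows, and the proximal but not the distal start of Hoxa10 holds it. The joint Hox and Pbx site TGATNNAT was in 4 of 24, those of Hoxa2, Hoxb1, Hoxb8 and a start of Hoxd11, against 7.68% of all, and in none of the windows printed. The median number of CpG dinucleotides was 13 in the 11 windows of tested members, 12 in the 13 windows of members that were not tested and 6 over all windows. These are matches of letters and not shown to be binding sites.

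The first comparison asked which members differ between Gne KO and WT cells while they proliferate. In HoxC the genes parted by position, since the posterior genes Hoxc13, Hoxc10, Hoxc11 and Hoxc9 were higher in KO cells and the central genes Hoxc5 and Hoxc4 were lower. Of these, Hoxc9 lost its call and turned in sign once a trend with base composition was removed. In HoxA, Hoxa10, Hoxa4, Hoxa7, Hoxa3 and Hoxa9 were higher and none was lower, though Hoxa11 passed as lower with libraries scaled by their totals and with that trend removed, where Hoxa7 too turned in sign. In all, 9 of 21 members were higher and 2 were lower (limma, adjusted p under 0.05), where 28.2% of the 20415 genes tested were higher and 27.2% were lower. The median log2 fold change was 0.28 over the members and -0.02 over all genes. With the limits on effect size of the methods added, 3 members passed, Hoxc10, Hoxc11 and Hoxc13, against 9.25% of all genes. Over the 5 posterior HoxC genes the median was 1.14, and over the 4 central ones it was -0.69. The posterior genes include Hoxc12, at -0.71 on 18 counts in all, and the central ones Hoxc6 and Hoxc8, which did not pass.

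**Figure D2:**
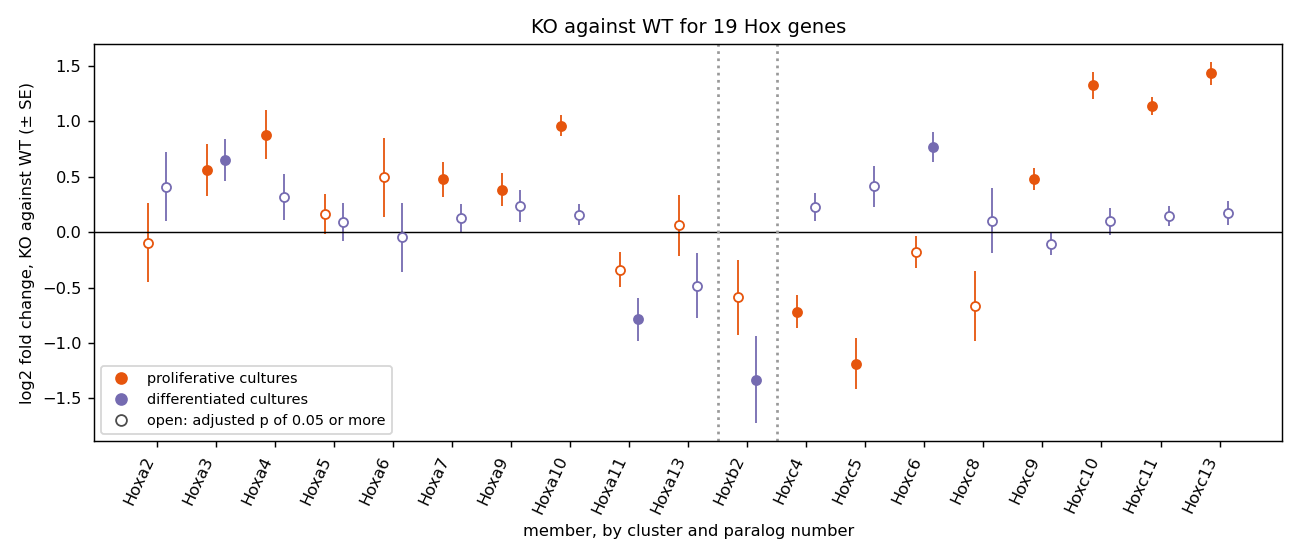
Difference between Gne KO and WT cells (log2 fold change) for the same 19 members, with standard errors, in proliferative and in differentiated cultures; filled points passed at an adjusted p under 0.05 and dotted lines part the clusters. In proliferative cultures the HoxC values run from -1.19 for Hoxc5 to 1.43 for Hoxc13, and in differentiated cultures most members lie near 0.

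Hoxc13 had normalized counts of 859, 979 and 818 in the WT proliferative libraries, 2150.5, 2697 and 2336 in the KO proliferative, 694, 661 and 796 in the WT differentiated and 855, 773 and 792 in the KO differentiated. All KO proliferative values lie above all other values. On the log2 scale, on which all differences below are given, KO exceeded WT in the proliferative state by 1.43 ± 0.10 (SE, adjusted p = 3.72e-08), a 2.7-fold excess. Hoxc10 had 1189, 1132 and 1020.1 in the WT proliferative libraries, 2299, 3469 and 2721 in the KO proliferative, 1159.9, 1163 and 1324 in the WT differentiated and 1323, 1297 and 1274 in the KO differentiated. The KO proliferative libraries were again the highest and the other 9 lay between 1020.1 and 1324. The difference was 1.32 ± 0.12 (SE, adjusted p = 3.5e-07), or 2.5-fold. Hoxc11, a paralog of Hoxa11 that marks the hindlimb and sacral region, had 939, 995 and 941 in the WT proliferative libraries, 1963, 2125.5 and 2240.3 in the KO proliferative, 657, 645 and 738 in the WT differentiated and 783, 719.9 and 746 in the KO differentiated. KO and WT proliferative values did not overlap, and Hoxc11 was 2.2-fold higher, at 1.14 ± 0.08 (SE, adjusted p = 3.97e-08). Hoxc9, which sets the thoracic type of motor neuron, had 557, 569.5 and 559 in the WT proliferative libraries, 711, 927 and 733 in the KO proliferative, 535, 569 and 614 in the WT differentiated and 538, 515 and 539.5 in the KO differentiated. It was higher by 0.48 ± 0.10 (SE, adjusted p = 0.000886), without overlap of the groups.

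Hoxc5, a gene of the cervical and upper thoracic region, had 542.5, 436 and 430.2 in the WT proliferative libraries, 348, 183 and 132 in the KO proliferative, 562, 489 and 631 in the WT differentiated and 699, 789 and 743 in the KO differentiated. Every KO proliferative value was below every WT value, with KO replicate 1 the nearest to WT. The difference was -1.19 ± 0.23 (SE, adjusted p = 0.000405), 2.28-fold lower. Hoxc4, the last gene of the cluster at its anterior end, had 680.3, 555 and 533 in the WT proliferative libraries, 449, 359.6 and 279.8 in the KO proliferative, 744, 662 and 821 in the WT differentiated and 844, 866 and 884 in the KO differentiated. It was lower in KO proliferative cells without overlap, at -0.72 ± 0.15 (SE, adjusted p = 0.00067). Hoxc6 and Hoxc8 did not pass. Hoxc6 had 599, 818 and 818 in the WT proliferative libraries, 722, 705 and 532 in the KO proliferative, 995, 859 and 1075 in the WT differentiated and 1494, 1729 and 1763 in the KO differentiated, and differed by -0.18 ± 0.15 (SE, adjusted p = 0.316) in the proliferative state. Hoxc8, a thoracic-level gene, had 153, 141 and 140.3 in the WT proliferative libraries, 179.8, 89.0 and 45.2 in the KO proliferative, 122.8, 97.1 and 139 in the WT differentiated and 110.4, 138 and 136 in the KO differentiated. Its KO proliferative values were far apart, with replicate 1 above all WT proliferative values, and the difference of -0.67 ± 0.32 (SE, adjusted p = 0.0846) became -1.20 (adjusted p = 0.000917) without that library.

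Hoxa10, needed for the lumbar spine and the uterus, had 597, 645 and 594 in the WT proliferative libraries, 1132, 1358 and 1099 in the KO proliferative, 660.0, 647 and 711 in the WT differentiated and 733, 734 and 782 in the KO differentiated. All its KO proliferative values lay above all others, and the difference was 0.96 ± 0.09 (SE, adjusted p = 6.15e-07), 1.95-fold. Hoxa4 had 32.1, 37.7 and 34.2 in the WT proliferative libraries, 51.4, 87.9 and 59.2 in the KO proliferative, 50.8, 42.0 and 46.1 in the WT differentiated and 59.99, 56.2 and 56.6 in the KO differentiated. Its proliferative groups did not overlap and the difference was 0.88 ± 0.22 (SE, adjusted p = 0.00337). Hoxa7 had 104, 123.2 and 118 in the WT proliferative libraries, 130.4, 191 and 164 in the KO proliferative, 205, 218 and 202 in the WT differentiated and 229, 238 and 215 in the KO differentiated, with a proliferative difference of 0.48 ± 0.15 (SE, adjusted p = 0.0154) and no overlap. That call held in 17 of 23 alternatives and was lost at 0.39 (adjusted p = 0.0669) without WT proliferative replicate 1 and at 0.31 (adjusted p = 0.104) without KO proliferative replicate 2. Hoxa9, a regulator of blood stem cells and leukemia, had 429, 503 and 502 in the WT proliferative libraries, 687, 732 and 473 in the KO proliferative, 523, 496 and 656 in the WT differentiated and 622, 665 and 671 in the KO differentiated. Its KO replicate 3 lay within the WT range, and the difference of 0.38 ± 0.15 (SE, adjusted p = 0.0391) passed in 5 of 23 alternatives. Hoxa3, a gene of the pharyngeal arches and the thymus, had 51.1, 54.4 and 63.9 in the WT proliferative libraries, 78.0, 120.3 and 61.3 in the KO proliferative, 94.98, 73.8 and 86.3 in the WT differentiated and 123.5, 136 and 141 in the KO differentiated. It too overlapped in the proliferative state, and its difference of 0.56 ± 0.23 (SE, adjusted p = 0.0497) passed in 2 of 23 alternatives.

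Base composition moved with this comparison over the whole table. Across the 12714 genes at or above 20 normalized counts on average, which are not independent replicates, the log2 fold change of KO against WT in the proliferative state had a Spearman correlation of 0.562 with the GC content of the transcript, against 0.125 in the differentiated state, and the 20 members described had a median GC content of 53.0% against 49.4% for those genes. Once the trend of each library with GC content and with length was removed, 4 members were higher, Hoxa10, Hoxc10, Hoxc11 and Hoxc13, and 5 were lower, Hoxa11, Hoxb2, Hoxc4, Hoxc5 and Hoxc6. The values were then 0.89 (adjusted p = 6.76e-06) for Hoxc13, 0.90 (adjusted p = 1.25e-05) for Hoxc10, 0.52 (adjusted p = 9.25e-05) for Hoxc11 and 0.45 (adjusted p = 0.00156) for Hoxa10. Hoxa3, Hoxa4 and Hoxa9 no longer passed, and the signs of Hoxa7, -0.04 (adjusted p = 0.841), and Hoxc9, -0.09 (adjusted p = 0.483), turned. Hoxc4 at -1.28 (adjusted p = 7.21e-05) and Hoxc5 at -1.55 (adjusted p = 0.000206) lay farther from 0 than before, and Hoxc6 passed at -0.72 (adjusted p = 0.00321). With libraries scaled by their totals alone, which moved the median of all genes to -0.21, 6 members were higher and 4 lower. Without WT replicate 1 and KO replicate 1, a choice made after seeing the data, 7 were higher and 4 lower. The shares of all genes that passed in these alternatives are not given, so these counts of members have no background beside them.

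The KO and WT cells were then compared in the differentiated state, where no posterior HoxC gene passed as higher and no central one as lower. The ratio of posterior to central HoxC counts, given below, was lower in KO than in WT libraries here, at 0.939 to 1.11 against 1.26 to 1.44. Hoxc6 and Hoxa3 were higher in KO cells, and Hoxa11 and Hoxb2 were lower. These 2 higher and 2 lower members of 21 stand against 11.1% higher and 12.5% lower of all genes, and none passed with the limits on effect size, against 3.00% of all genes. The median log2 fold change was 0.14 over the members and -0.01 over all genes.

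Hoxc6 was highest in the KO differentiated libraries, as its values above show, and its difference was 0.77 ± 0.13 (SE, adjusted p = 0.00049), 1.7-fold, with no overlap. Hoxa3 was higher by 0.65 ± 0.19 (SE, adjusted p = 0.0204), also without overlap, and its call held in 19 of 23 alternatives. Hoxa11, which shapes the middle segment of the limb and the uterus, had 155, 139 and 123.2 in the WT proliferative libraries, 92.9, 109.9 and 132 in the KO proliferative, 73.9, 85.9 and 85.3 in the WT differentiated and 53.0, 43.2 and 44.6 in the KO differentiated. Its KO differentiated values lay below all others and the difference was -0.79 ± 0.20 (SE, adjusted p = 0.00846), 1.73-fold lower. Hoxb2, a hindbrain gene and the only HoxB gene above the filter, had 43.3, 23.3 and 44.5 in the WT proliferative libraries, 29.6, 16.2 and 26.9 in the KO proliferative, 26.9, 26.1 and 36.1 in the WT differentiated and 11.3, 6.49 and 18.6 in the KO differentiated. At these low counts its KO differentiated values, all below those of WT, gave -1.33 ± 0.39 (SE, adjusted p = 0.0213), a call that held in 20 of 23 alternatives. The 4 posterior HoxC genes that were higher in KO proliferative cells did not pass here, with 0.18 (95% interval -0.05 to 0.41) for Hoxc13, 0.10 (-0.16 to 0.36) for Hoxc10, 0.14 (-0.04 to 0.33) for Hoxc11 and -0.11 (-0.33 to 0.12) for Hoxc9. Hoxc5, at 0.41 (0.02 to 0.81), and Hoxc4, at 0.23 (-0.05 to 0.50), were not lower in KO cells here, and their KO and WT libraries did not overlap, with KO the higher.

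The count of members here moved with the libraries in the fit. The share of all genes that passed in these fits is not given, so the moves are not shown to be particular to the members. When only the 6 differentiated libraries were fitted, which also changes the filter, the scaling and the genes adjusted over, 7 members were higher and 3 lower, among them Hoxc5 at 0.41 (adjusted p = 0.000423) and Hoxc4 at 0.23 (adjusted p = 0.00975). Without WT differentiated replicate 3, or without KO differentiated replicate 2, Hoxc6 alone was higher and Hoxa11 alone lower. Without KO proliferative replicate 1, a library outside this comparison that enters the fit, 3 were higher and 3 lower.

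The change from the proliferative to the differentiated state was small in WT cells, and members passed at about the share of all genes. Hoxa7 and Hoxc6 were among the members that were higher and Hoxa11, Hoxc11 and Hoxc13 were lower, 3 and 3 of 21, while 16.6% of all genes were higher and 15.3% lower. None passed with the limits on effect size, which 2.70% of all genes did. The medians were 0.14 over the members and 0.02 over all genes. Hoxa7 rose by 0.87 ± 0.15 (SE, adjusted p = 0.000285) and Hoxc6 by 0.41 ± 0.14 (SE, adjusted p = 0.0359), both without overlap, but Hoxc6 was at 0.25 (adjusted p = 0.191) without WT proliferative replicate 1. Hoxa11 fell by 0.77 ± 0.16 (SE, adjusted p = 0.00185), Hoxc11 by 0.50 ± 0.09 (SE, adjusted p = 0.000368) and Hoxc13 by 0.30 ± 0.11 (SE, adjusted p = 0.0414) on the log2 scale, each without overlap. The call of Hoxc13 held in 14 of 23 alternatives.

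**Figure D3:**
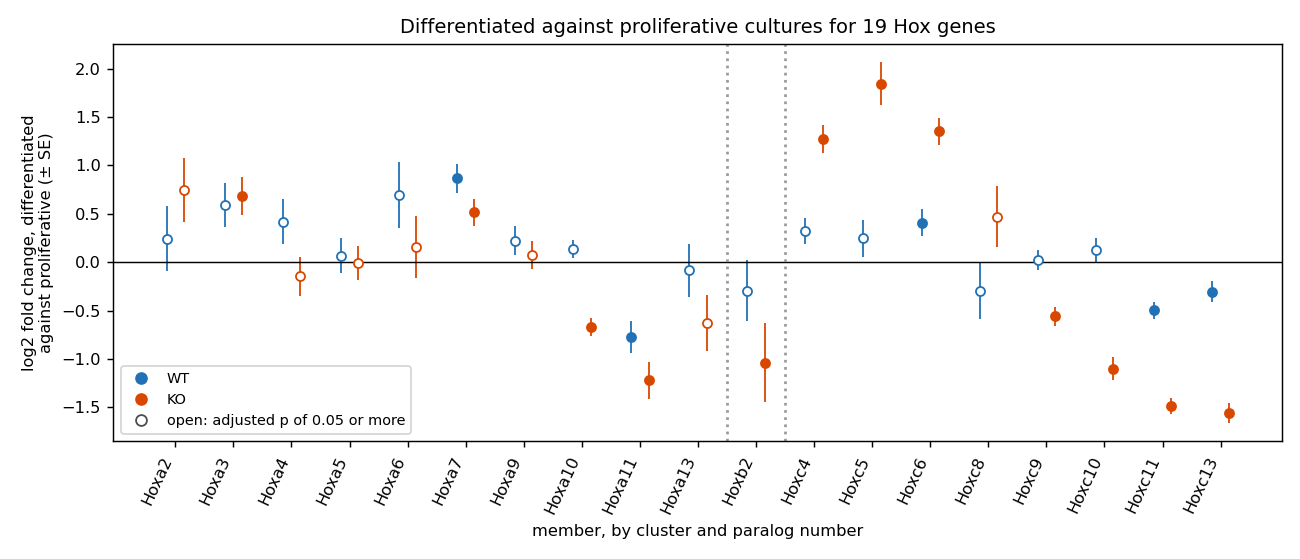
Log2 fold change of differentiated against proliferative cultures of the same 19 members, with standard errors, in WT and in KO cells; filled points passed at an adjusted p under 0.05 and dotted lines part the clusters. KO values run from -1.56 for Hoxc13 to 1.85 for Hoxc5, and WT values from -0.77 for Hoxa11 to 0.87 for Hoxa7.

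In KO cells the change between the culture conditions was larger, as was the share of all genes that passed. The summed myogenic level of KO cells did not rise with it. Of 9 myogenic genes tested, 2 rose in KO cells, Ttn and Acta1, and 2 fell, Des and Myod1. HoxC parted by position, with 3 of 4 central genes up and 4 of 5 posterior genes down. The exceptions were Hoxc8, at 0.47 (adjusted p = 0.224), and Hoxc12, at 0.74 (adjusted p = 0.361) on 18 counts in all, which did not pass. Hoxa3, Hoxa7, Hoxc4, Hoxc5 and Hoxc6 rose and Hoxa10, Hoxa11, Hoxb2, Hoxc9, Hoxc10, Hoxc11 and Hoxc13 fell, 5 and 7 of 21, against 28.7% of all genes that rose and 27.7% that fell. Hoxc4, Hoxc5, Hoxc6, Hoxc10, Hoxc11 and Hoxc13 also passed the limits on effect size, 6 of 21 against 11.7% of all genes. The medians were 0.07 over the members and over all genes. Hoxc5 rose 3.6-fold, at 1.85 ± 0.22 (SE, adjusted p = 3.17e-06), Hoxc6 2.56-fold, at 1.35 ± 0.14 (SE, adjusted p = 5.68e-07), and Hoxc4 2.41-fold, at 1.27 ± 0.14 (SE, adjusted p = 1.6e-06). In each of these genes every KO differentiated library was above every KO proliferative one. Hoxc13 fell 2.95-fold, at -1.56 ± 0.10 (SE, adjusted p = 5.1e-09), Hoxc11 2.81-fold, at -1.49 ± 0.08 (SE, adjusted p = 9.47e-10), Hoxc10 2.15-fold, at -1.10 ± 0.12 (SE, adjusted p = 1.05e-06), and Hoxc9 1.47-fold, at -0.56 ± 0.10 (SE, adjusted p = 0.000199). Their KO differentiated libraries lay below the KO proliferative ones without overlap. In HoxA, Hoxa11 fell by 1.22 ± 0.19 (SE, adjusted p = 4.94e-05) and Hoxa10 by 0.67 ± 0.09 (SE, adjusted p = 1.16e-05) on the log2 scale, while Hoxa3 rose by 0.69 ± 0.20 (SE, adjusted p = 0.00701) and Hoxa7 by 0.51 ± 0.14 (SE, adjusted p = 0.00405). Hoxb2 had -1.04 ± 0.41 (SE, adjusted p = 0.0407), with overlapping groups, and its call held in 11 of 23 alternatives. With the GC and length trend removed, Hoxc9 was at -0.04 (adjusted p = 0.78) and Hoxa10 at -0.18 (adjusted p = 0.126), and 7 members rose and 4 fell. With libraries scaled by their totals, which moved the median of all genes to 0.34, 6 rose and 6 fell. No share of all genes is given beside the counts of members in these alternatives. This comparison shares its KO proliferative libraries with that of KO against WT in the proliferative state, so that the 2 sets of values are not independent.

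Whether the change between the states differed between the genotypes was tested as an interaction, in which a positive value means that the log2 fold change of differentiated against proliferative cells was larger in KO than in WT cells. Hoxc5, Hoxc6 and Hoxc4 were positive and Hoxc13, Hoxc10, Hoxc11, Hoxa10 and Hoxc9 negative, so 3 members passed upward and 5 downward of 21, against 19.7% and 22.2% of all genes. With the limits on effect size Hoxc5, Hoxc10 and Hoxc13 remained, against 8.53% of all genes. The value was 1.60 ± 0.30 (SE, adjusted p = 0.00052) for Hoxc5, 0.95 ± 0.20 (SE, adjusted p = 0.00125) for Hoxc6 and 0.95 ± 0.20 (SE, adjusted p = 0.00128) for Hoxc4. It was -1.26 ± 0.15 (SE, adjusted p = 1.35e-05) for Hoxc13, -1.23 ± 0.17 (SE, adjusted p = 5.76e-05) for Hoxc10 and -0.99 ± 0.12 (SE, adjusted p = 1.53e-05) for Hoxc11. Hoxa10 had -0.80 ± 0.13 (SE, adjusted p = 0.000213) and Hoxc9 -0.58 ± 0.15 (SE, adjusted p = 0.00462). The plot of these 8 genes by library shows that the KO proliferative group is the one that stands off in each but Hoxc6, where the KO differentiated group does. With the GC and length trend removed, Hoxa10 at -0.32 (adjusted p = 0.084) and Hoxc9 at -0.05 (adjusted p = 0.811) no longer passed and the other 6 did. Without KO proliferative replicate 1, 4 members passed upward and 9 downward, Hoxc8 among them at 1.30 (adjusted p = 0.00306). The share of all genes that passed without that library is not given.

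**Figure D4:**
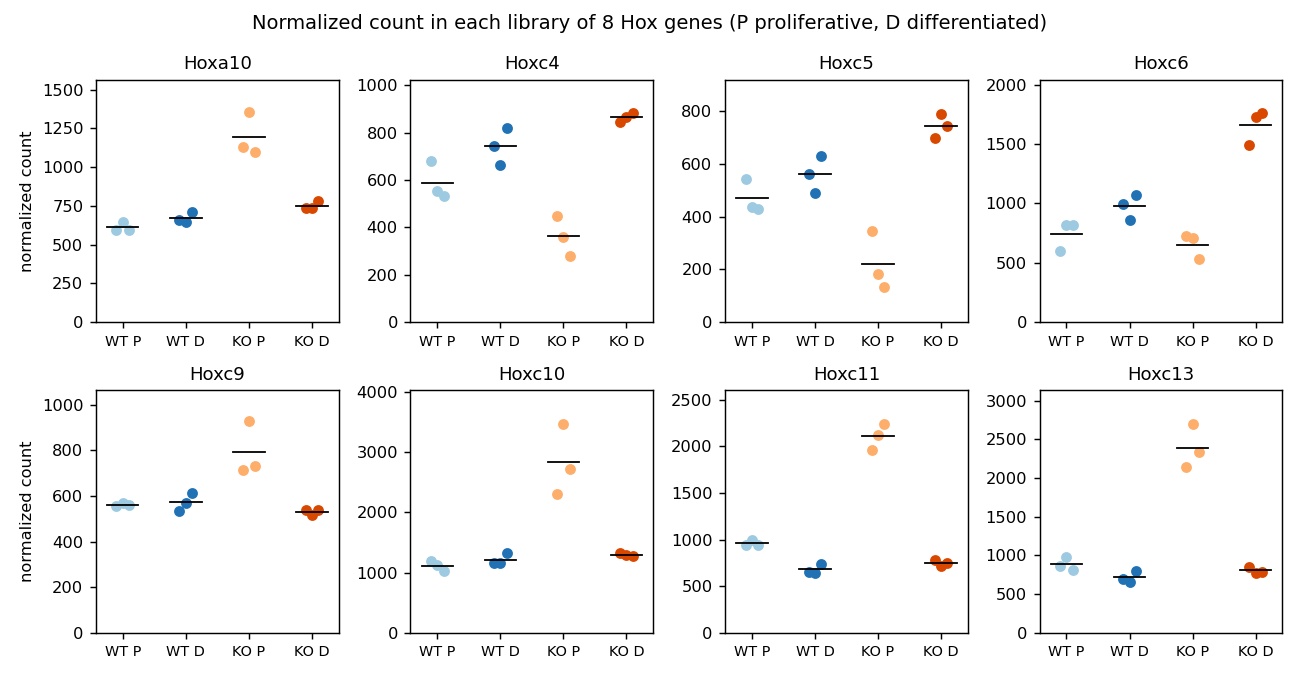
Normalized count in each library of the 8 members that passed the test of the interaction (WT or KO, P proliferative, D differentiated); points are libraries, lines are means of 3 and each axis starts at 0. KO proliferative values of Hoxc10, Hoxc11 and Hoxc13 lie above all other libraries, and those of Hoxc4 and Hoxc5 below them.

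The balance within HoxC can be read within each library, where it does not depend on how libraries are scaled. A trend of a library with GC content or length can still move it, and it was not formed with that trend removed. The summed normalized count of Hoxc9 to Hoxc13 divided by that of Hoxc4, Hoxc5, Hoxc6 and Hoxc8 was 1.80, 1.89 and 1.74 in the WT proliferative libraries. It was 4.19, 6.90 and 8.12 in the KO proliferative libraries, all above every other library. In the differentiated state it was 1.26, 1.44 and 1.30 in WT and 1.11, 0.939 and 0.951 in KO libraries. Thus the posterior genes held 63.5% to 65.3% of the HoxC count in WT and 80.7% to 89.0% in KO proliferative cells, and 55.7% to 59.1% and 48.4% to 52.7% in differentiated cells. Both sums moved, from 3521 ± 170.4 in WT to 8125 ± 1051 in KO proliferative libraries for the posterior genes and from 1949 ± 26.8 to 1342 ± 355 for the central ones (SD, n = 3). This ratio was formed after the values of its genes were seen, and it was given no test.

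**Figure D5:**
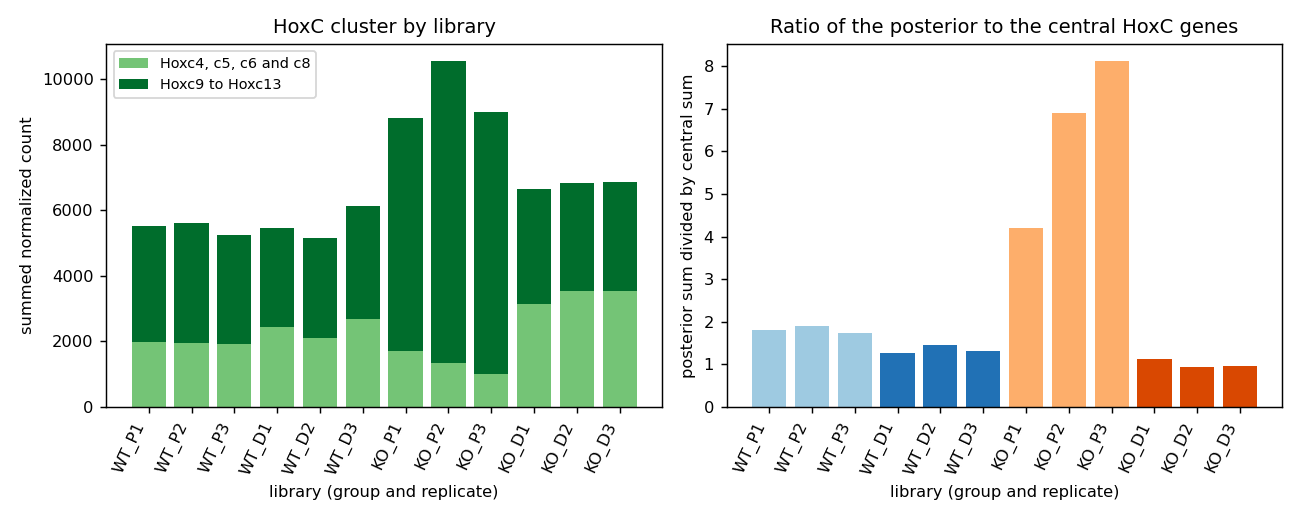
Left, summed normalized count of the central (Hoxc4, Hoxc5, Hoxc6 and Hoxc8) and posterior (Hoxc9 to Hoxc13) HoxC genes in each library. Right, posterior sum divided by central sum, from 4.19 to 8.12 in the KO proliferative libraries and from 0.939 to 1.89 in the other 9.

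Of the other members, Hoxa2, Hoxa5, Hoxa6 and Hoxa13 passed no test in the fit used here. In the alternatives, Hoxa2 passed in 5 of 22, Hoxa6 in 2 of 23 and Hoxa13 in 1 of 23 for the change between the states in KO cells, and Hoxa6 in 2 of 23 for that in WT cells. With the GC and length trend removed, the change in KO cells was 1.08 (adjusted p = 0.00842) for Hoxa2 and 0.85 (adjusted p = 0.0464) for Hoxa6. Hoxa2, a gene of the hindbrain and the pharyngeal arches, had 13.9, 12.2 and 13.7 in the WT proliferative libraries, 10.9, 20.8 and 8.61 in the KO proliferative, 12.5, 16.8 and 19.1 in the WT differentiated and 17.4, 20.5 and 26.9 in the KO differentiated. Hoxa5, needed for the lung and the neck vertebrae, had 82.3, 103 and 83.3 in the WT proliferative libraries, 117, 109.9 and 76.4 in the KO proliferative, 85.4, 90.6 and 104 in the WT differentiated and 103, 94.0 and 99.4 in the KO differentiated. Its log2 fold change was 0.16 (95% interval -0.22 to 0.55) for KO against WT in the proliferative and 0.09 (-0.28 to 0.46) in the differentiated state. Hoxa6 had 21.7, 17.8 and 28.5 in the WT proliferative libraries, 45.4, 20.8 and 31.2 in the KO proliferative, 37.4, 35.5 and 36.1 in the WT differentiated and 56.5, 28.1 and 26.0 in the KO differentiated. Hoxa13, the gene of digits and of the genital tract, had 45.1, 45.5 and 44.5 in the WT proliferative libraries, 49.4, 68.2 and 31.2 in the KO proliferative, 29.7, 51.4 and 50.2 in the WT differentiated and 29.6, 27.02 and 34.4 in the KO differentiated. The groups of these genes overlap between the genotypes in both states.

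Noncoding genes of the clusters and genes at their borders were read alongside. Over all genes tested, 28.2% were higher and 27.2% lower in KO proliferative cells, and 11.1% and 12.5% in KO differentiated cells. Of 6 noncoding genes tested, 1 was lower in KO proliferative cells, Hoxa11os, the antisense partner of Hoxa11, at -0.88 ± 0.30 (SE, adjusted p = 0.0213), and 1 was higher in KO differentiated cells, Hoxaas2, at 1.21 ± 0.38 (SE, adjusted p = 0.0294) on low counts and named after its value was seen. Hotair, transcribed from the posterior part of HoxC between Hoxc11 and Hoxc12, had 157 ± 12.7 normalized counts in WT and 122.8 ± 34.1 in KO proliferative libraries (SD, n = 3), a difference of -0.38 ± 0.19 (SE, adjusted p = 0.0989) that did not pass and that is opposite in sign to those of Hoxc11 and Hoxc13. Hottip, at the posterior end of HoxA, had 8 counts in all. Of 10 border genes tested, 2 were higher and 5 lower in KO proliferative cells and none higher and 2 lower in KO differentiated cells. The values of the noncoding and border genes were not examined with the GC and length trend removed. Beside HoxC, Smug1, a DNA glycosylase gene, had -0.63 ± 0.11 (SE, adjusted p = 0.000202) in the proliferative state, Cbx5, which encodes the heterochromatin protein HP1 alpha, had -0.46 ± 0.12 (SE, adjusted p = 0.00386) and Calcoco1 had 0.60 ± 0.16 (SE, adjusted p = 0.00434). Beside HoxD, Lnpk had -1.42 ± 0.14 (SE, adjusted p = 5.42e-07) in the proliferative and -0.55 ± 0.13 (SE, adjusted p = 0.00668) in the differentiated state, and Mtx2 had -0.40 ± 0.09 (SE, adjusted p = 0.00155) in the proliferative state. Beside HoxA, Snx10 had -0.38 ± 0.12 (SE, adjusted p = 0.0129) and -0.58 ± 0.11 (SE, adjusted p = 0.00117) in the 2 states, and Hibadh had 0.34 ± 0.08 (SE, adjusted p = 0.00123) in the proliferative state. Skap2, at 0.03 ± 0.08 (SE, adjusted p = 0.763), and, beside HoxB, Snx11, at -0.16 ± 0.11 (SE, adjusted p = 0.255), and Skap1, which had 32 counts in all, did not pass between the genotypes in either state.

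The genes known to act with or upon the clusters were described from lists. Their counts stand against 28.2% higher and 27.2% lower of all genes in the proliferative state, and 11.1% and 12.5% in the differentiated state. Of 9 TALE cofactors, 5 were higher and 1 lower in KO proliferative cells and 4 higher and none lower in KO differentiated cells. Meis1 had 1.06 ± 0.10 (SE, adjusted p = 3.39e-07) and 0.50 ± 0.09 (SE, adjusted p = 0.000898) in the 2 states, Meis3 0.58 ± 0.12 (SE, adjusted p = 0.00053) and 0.77 ± 0.11 (SE, adjusted p = 7.24e-05), and Pbx4, on lower counts, 2.04 ± 0.37 (SE, adjusted p = 0.000207) and 1.04 ± 0.24 (SE, adjusted p = 0.00518). Of 31 Polycomb subunits, 17 were higher and 14 lower in the proliferative state and 10 and 3 in the differentiated state. Mtf2, at -1.87 ± 0.17 (SE, adjusted p = 4.13e-07), and Suz12, at -1.43 ± 0.14 (SE, adjusted p = 8.4e-07), both parts of the PRC2 complex, were lower and Phf19, a related PRC2 partner, was higher at 1.29 ± 0.12 (SE, adjusted p = 3.63e-07) in the proliferative state. Of 16 trithorax and H3K27 demethylase genes, 7 were higher and 6 lower in the proliferative state and 1 higher and none lower in the differentiated state. Men1 had 1.09 ± 0.10 (SE, adjusted p = 2.71e-07), and the demethylase gene Kdm6a -1.03 ± 0.11 (SE, adjusted p = 1.5e-06) and the methyltransferase gene Kmt2c -0.96 ± 0.10 (SE, adjusted p = 1.08e-06), in the proliferative state. The values of these lists were not examined with the GC and length trend removed.

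Retinoic acid is a classical inducer of Hox genes. Of 14 genes of its synthesis, binding and reception that were tested, 9 were higher and none lower in KO proliferative cells, and 4 higher and 3 lower in KO differentiated cells. Over all genes tested, the shares higher and lower were 28.2% and 27.2% in the proliferative and 11.1% and 12.5% in the differentiated state. Rarg, a retinoic acid receptor, had 1.10 ± 0.09 (SE, adjusted p = 1.18e-07) and Aldh1a1, a retinal dehydrogenase gene, 1.72 ± 0.67 (SE, adjusted p = 0.0398) in the proliferative state, the last on low counts, with 1.63 ± 0.24 (SE, adjusted p = 0.000106) in the differentiated state. The Cdx factors, which switch on central Hox genes in the embryo, were barely counted, with Cdx1 at 16, Cdx4 at 7 and Cdx2 at 0 counts in all. Of 8 limb factors tested, 5 were higher and 1 lower in KO proliferative cells and 3 and 1 in KO differentiated cells, with Grem1 at 1.63 ± 0.19 (SE, adjusted p = 3.84e-06) and 1.96 ± 0.20 (SE, adjusted p = 3.35e-06), En1 at 1.02 ± 0.13 (SE, adjusted p = 6.15e-06) and 0.00 ± 0.13 (SE, adjusted p = 0.995) and Tbx3 at 0.56 ± 0.10 (SE, adjusted p = 0.000202) and 0.50 ± 0.10 (SE, adjusted p = 0.0015). The hindlimb factor Pitx1 and Hand2 are listed at 0 in every library, and the hindlimb factor Tbx4 had 3 counts and the forelimb factor Tbx5 had 2. The part of any of these genes in the Hox values was not tested. Nor were the values of the retinoic acid and limb genes examined with the GC and length trend removed.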

How the data were processed

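RNA of 12 Sol8 libraries was prepared with a stranded mRNA kit and sequenced from single ends. Among the tools listed by the submitters are TopHat2 2.1.1, HTSeq 0.6.1 and cutadapt 1.18, and the build listed is GRCm38. The strand setting of the counting is not stated in the sources at hand. The deposited table holds, among other columns, raw read counts per gene, with question marks in 6252 of 54838 genes. It also holds normalized values and fold changes and p-values of the authors' own comparisons, which were not used here. Because of the question marks the counts were tested with limma 3.58.1 (voom) in R 4.3.3 and not with a negative binomial model. Library sizes were scaled by TMM (trimming 30% of log ratios and 5% of mean levels), and the 20415 genes that reached 10 counts in sum were fitted in 4 groups together. P-values were adjusted by the Benjamini-Hochberg method over all of these genes, and a gene passed at an adjusted p under 0.05. A normalized count is a raw count divided by the effective library size and multiplied by the mean effective size. The limits on effect size are those of the study's methods, a mean of 5 or more and a size of the log2 fold change over 0.9 plus 7.5 over the root of the mean. The error of a fold change is its standard error from the fit. Total counts were 22612038 to 29389759 per library. Each alternative to scaling, filter, weights, test, libraries, replicate numbers, GC content or transcript length was run on the whole table, and the fit was tested on simulated data. Of the 20 members whose mean normalized count reached 20 in 1 or more groups, 19 are given in every library and 1 is not reported here, nor is a gene of a companion list. Of the companion lists other than the cell type markers, the 3 members of largest change among those that passed with at least 20 normalized counts are named, and all genes tested at the borders. The myogenic genes named were given for the label of myoblast and not by size of change. The members and lists were chosen with earlier results of these data known.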

Additional observations from a re-analysis of the deposited data

Results flagged for a closer look

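The change between the proliferative and the differentiated state differed between KO and WT cells in 8 members, by the interaction term of the limma fit over 20415 genes, with 3 libraries in each of 4 groups. These 3 upward and 5 downward of 21 members stand against 19.7% and 22.2% of all genes, so their number is near the share of the whole table. The log2 difference, KO minus WT, was positive for the central genes Hoxc5 at 1.60 (adjusted p = 0.00052), Hoxc6 at 0.95 (adjusted p = 0.00125) and Hoxc4 at 0.95 (adjusted p = 0.00128). It was negative for the posterior genes Hoxc13 at -1.26 (adjusted p = 1.35e-05), Hoxc10 at -1.23 (adjusted p = 5.76e-05), Hoxc11 at -0.99 (adjusted p = 1.53e-05), Hoxa10 at -0.80 (adjusted p = 0.000213) and Hoxc9 at -0.58 (adjusted p = 0.00462). The KO proliferative libraries also had the widest replicate spread, and the Spearman correlation of the interaction with GC content was -0.520 over 12714 genes, which are not independent replicates. The part of either in these values was not tested beyond the alternative with the GC and length trend removed, in which 6 of the 8 passed.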

How the results depend on the processing

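Of 100 values of single genes in each alternative, 97 kept their side of the threshold, and their sign where they passed, with the replicate block, 98 with median-of-ratios size factors, 96 with no filter beyond 1 count, 90 with library size alone and all 100 with limma trend. A filter of at least 1 CPM in at least 3 libraries left 95 values, since Hoxa2 dropped out, and 89 of them did so. Fewer of 100 were kept with sample quality weights, 83, and with the GC and length trend removed, 84 with or without the replicate block. It was 84 as well without WT proliferative replicate 1 and KO proliferative replicate 1 together. When only the groups compared were fitted, 68 of 80 values were kept, and 1138 of 1200 when 1 library at a time was left out. Among values that passed, signs turned only for KO against WT in the proliferative state with the GC and length trend removed, where Hoxa7 was at -0.0361 and Hoxc9 at -0.0939, and with the replicate block as well, at -0.0346 and -0.0934. Of values that passed in neither fit, 11 turned in sign with that trend removed and 6 with library size alone.

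The counts of members that passed moved by over 1.5 times as follows. The limits on effect size left 3 and 0 for KO against WT in the proliferative and the differentiated state, 0 and 6 for the change between states in WT and in KO cells, and 3 for the interaction. For KO against WT in the differentiated state, 10 passed in place of 4 when only the groups compared were fitted, 11 with sample quality weights, and 7 without WT proliferative replicate 1 and KO proliferative replicate 1 together, which was chosen after seeing the data. Quality weights also gave 10 in place of 6 for the change in WT cells. The cause of these moves was not tested. Nor is the share of all genes that passed given for the alternative fits, so the moves are not shown to be particular to the members. Leaving out 1 library at a time gave 8 to 12 members for KO against WT in the proliferative state, 2 to 6 in the differentiated state, 4 to 8 for the change in WT cells, 11 to 13 in KO cells and 8 to 13 for the interaction.

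With libraries scaled by their totals alone, 38.5% of all calls for KO against WT in the proliferative state were higher against 50.9% in the main fit by TMM, 66.4% against 50.9% for the change in KO cells, and 64.7% against 47.0% for the interaction. With the replicate number as a block, 9, 4, 5, 12 and 8 members passed in the 5 comparisons against 11, 4, 6, 12 and 8 without it. The numbers were not taken to pair the libraries, since the deviations of libraries with the same number correlated between -0.254 and 0.110 and were closest to their own number in 3 of 12 cases.

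Genes with low counts, such as Hoxa2, are limited by depth, and members at 0 are not shown to be silent below the limit given. KO cells are 1 clone, so clone and genotype cannot be told apart.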
